A study of Homo sapiens with 18 samples.

Results

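Glycolysis and the response to low oxygen are described here through 36 genes, chosen by symbol from the deposited RNA count table. All 36 were found among its 55766 entries, and 34 passed the filter on low counts, which kept 13786 genes. ADM and CA9 had too few counts to be tested. The 36 genes comprise 4 carriers of glucose or lactate, 6 genes of upper glycolysis, 9 of lower glycolysis, 2 lactate dehydrogenases, 3 regulators, 4 genes of oxygen sensing and 8 further hypoxia targets.

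Glycolysis splits glucose into pyruvate in the cytosol and yields ATP without oxygen. When oxygen is short, pyruvate is reduced to lactate, which leaves the cell through monocarboxylate carriers. The transcription factor HIF-1, a pair of HIF1A and ARNT, raises many glycolytic genes in low oxygen. In normal oxygen the prolyl hydroxylases EGLN1 and EGLN3 mark HIF1A protein for breakdown, so that HIF1A is set mainly at the protein level and its mRNA need not follow its activity. K562 cells, a leukaemia line like many other cancer lines, are known to use glycolysis heavily even with oxygen present.

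All samples were K562 cells, an established human line from a chronic myeloid leukaemia, that carried a B2M:tdTomato transgene, the untreated controls included. In the TALE group, 3 plasmids coded for different artificial repressors built on TALE DNA-binding proteins. In the dCas9 group the repressors were built on dCas9, and 250 ng of guide RNA plasmid was added. In both groups 1 ug of plasmid for the D3A-based repressor was used, with the other plasmids at equal molar amounts, and the B2M promoter was the target. RNA-seq and MeDIP-seq, which sequences DNA captured by an antibody against 5-methylcytosine, were each done on 3 samples per group, untreated, TALE and dCas9. "Silenced" cells below are both treated groups, averaged with equal weight. The labels do not give the time of collection, the oxygen level, or whether replicates were separate cultures, clones or sorted pools. The p-values therefore measure the spread between these samples, which may be technical.

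RNA libraries held 8460076 to 12050554 counts, of which the 36 genes took 1.11% to 1.46%. The transgene entry, named B2M_tomato, had 3115 to 4109 counts in untreated libraries and 128 to 205 in the 6 silenced ones, which goes with the labels. Genes of the mitochondrial genome took 4.04% to 14.0% of counts. Of 12 markers of K562 cells, 12 were tested and none was at 0 in any library, with summed levels of 7055 to 10959 CPM. Markers of other lineages had lower sums. The 3 T cell markers summed to 16.9 to 32.8 CPM, most of it from CD3D, which stood at 14.8 to 29.6 CPM. The 3 B cell markers summed to 0.247 to 2.07 CPM and 4 fibroblast markers to 5.31 to 10.8 CPM. The 2 keratinocyte markers summed to at most 0.726 CPM. CPM here are counts brought to a common library size, after trimmed-mean scaling in edgeR.

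The members covered more than 4 orders of magnitude. Per kilobase of transcript, the highest in untreated cells were GAPDH, which oxidises glyceraldehyde phosphate, at 2389 ± 65.3 CPM per kb (SD, n = 3), and ALDOA, the main aldolase, at 1452 ± 61.1. LDHA, the lactate dehydrogenase subunit that favours lactate production, followed at 939 ± 20.5, then the enolase ENO1 at 633 ± 39.5 and LDHB, the subunit of oxidative tissues, at 461 ± 41.8. These 5 levels were each separated from the next by more than their spread. PKM, the last enzyme of glycolysis, stood at 257 ± 3.98. TPI1, PGK1 and HK1, at 136 ± 10.5, 118 ± 5.45 and 115 ± 6.63, lay closer, and PGK1 and HK1 did not differ beyond their spread. At the low end, ADM, a vasodilator peptide, had 0 to 6 counts per library. CA9, a carbonic anhydrase often used as a hypoxia marker, had 3 to 11 counts, the lactate exporter SLC16A3 had 7 to 23, and NDRG1 had 6 to 39. Several classical hypoxia markers were thus close to the counting limit in these cells.

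**Figure D1:**
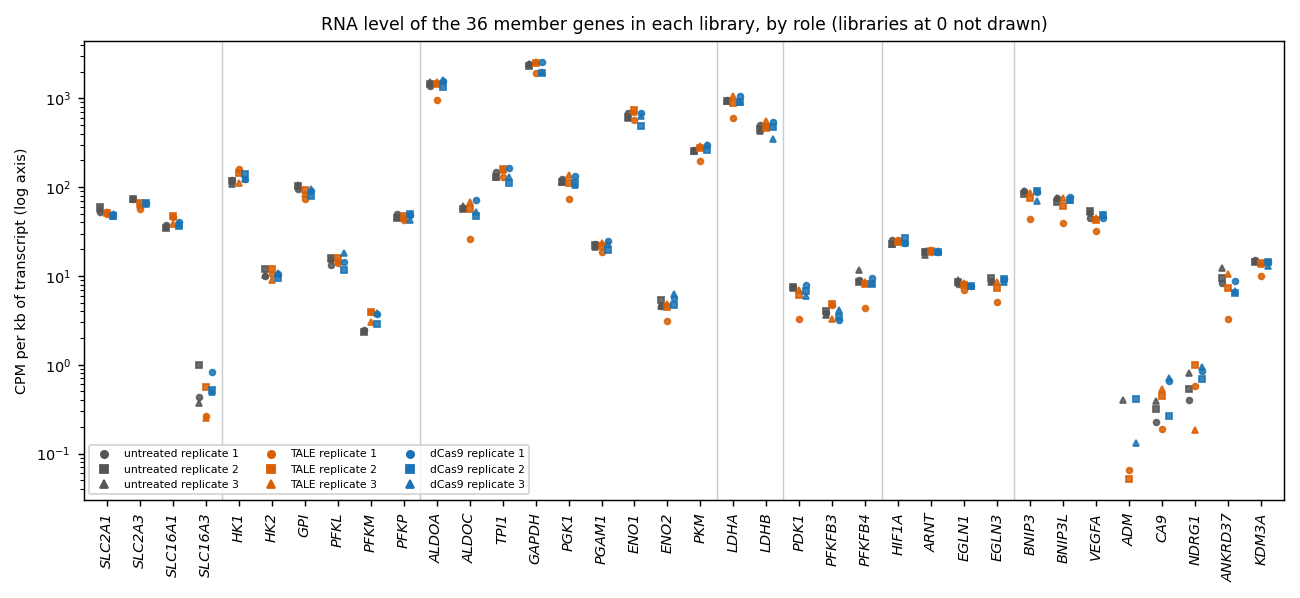
RNA level of each of the 36 genes in CPM per kb of transcript on a log axis, with genes ordered by role along the x axis and 1 point per library (grey untreated, orange TALE, blue dCas9; shape for the replicate). GAPDH stands highest at 2389 CPM per kb in untreated cells, and ADM, CA9, NDRG1 and SLC16A3 lie lowest in the plot.

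Isozymes of the same step differed widely in level. Per kilobase, HK1, the housekeeping hexokinase, stood 10.8 ± 1.11 times above HK2, the inducible form, in untreated cells (SD of the ratio, n = 3). ALDOA was 24.7 ± 1.08 times ALDOC, and ENO1 was 132 ± 15.0 times the neuronal enolase ENO2. Of the 3 phosphofructokinases, the platelet form PFKP was 3.16 ± 0.466 times the liver form PFKL and 19.4 ± 0.540 times the muscle form PFKM. The 2 glucose carriers were close: SLC2A3 was 1.31 ± 0.0827 times SLC2A1. LDHA exceeded LDHB 2.04 ± 0.148 times. Counts of SLC2A3 may include reads of the near-identical SLC2A14.

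No member passed the adjusted threshold of 0.05 in any contrast under edgeR's quasi-likelihood test with Benjamini-Hochberg adjustment over all 13786 genes. In TALE against untreated cells the count was 0 of 34, beside 0.0218% of all genes. It was 0 of 34 in dCas9 against untreated cells, beside 0.029%, 0 in TALE against dCas9, beside 0%, and 0 in silenced against untreated cells, beside 0.0363%. DESeq2 also called 0 in each. At an unadjusted edgeR p under 0.05, the TALE comparison held 7 members, 2 higher and 5 lower, where 7.15% of all genes passed (DESeq2: 9 members). The dCas9 comparison held 2, 1 in each direction, beside 5.93% of all genes (DESeq2: 2). TALE against dCas9 held 2, both lower, beside 6.38% (DESeq2: 2), and silenced against untreated cells held 2, 1 in each direction, beside 6.35% (DESeq2: 4). In bulk RNA, fewer cells making a transcript and less transcript per cell cannot be told apart.

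The intervals show what size of change these data could hold. The 95% interval of a member's log2 fold change reached a median of 0.33 to either side of the estimate in TALE and in dCas9 against untreated cells. For 31 of 34 members in the TALE comparison, and 32 of 34 in the dCas9 comparison, the whole interval lay within 1 log2 unit of 0. The wide ones belonged to the members with few counts. For SLC16A3 the interval in TALE cells ran from -1.67 to 0.32, and for NDRG1, a stress-induced gene of differentiation, from -0.88 to 1.04. The median log2 fold change over the 34 members was -0.14 in TALE and -0.02 in dCas9 cells against untreated ones, beside 0.00 over all genes in each. Without TALE replicate 1 the TALE median was 0.021, on the other side of 0. The 2 comparisons share their 3 untreated libraries.

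**Figure D2:**
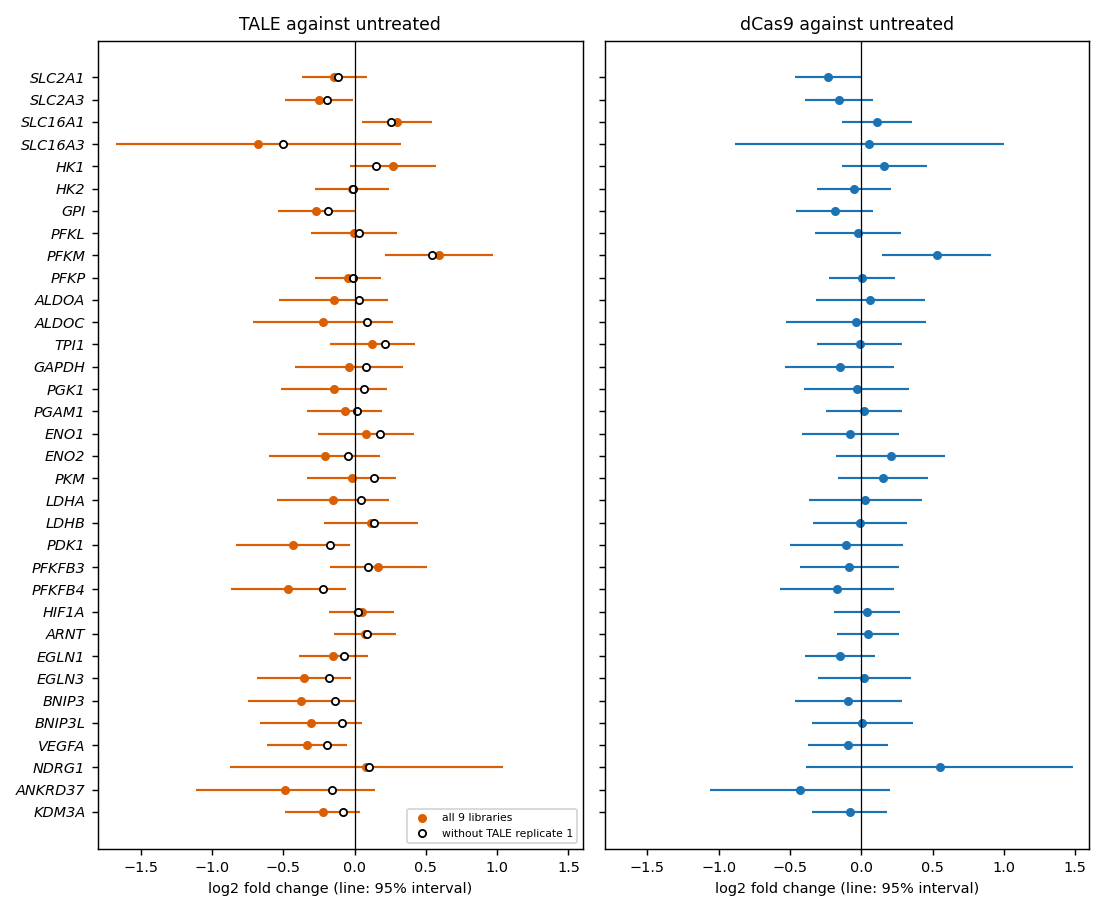
Log2 fold change of the 34 tested genes (x axis) in TALE (left) and dCas9 (right) against untreated cells, with the 95% interval from edgeR as a line. Open circles on the left are the estimates without TALE replicate 1; PFKM lies to the right of 0 in both panels, at 0.59 and 0.53.

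Among the carriers, neither glucose importer passed the adjusted threshold in any contrast. SLC2A3 (GLUT3), a high-affinity glucose importer, stood at 278, 280 and 283 CPM in untreated replicates 1 to 3, at 217, 250 and 239 CPM in TALE cells and at 255, 254 and 245 CPM in dCas9 cells. All 6 silenced libraries lay below all 3 untreated ones. The log2 fold change in silenced cells was -0.20 (SE 0.0967, adjusted p = 0.785 by edgeR). SLC2A1 (GLUT1), the widespread basal importer, read 178, 203 and 190 CPM in untreated cells, 167, 173 and 177 in TALE cells and 168, 159 and 159 in dCas9 cells. Here too no silenced library reached an untreated one. Its log2 fold change was -0.23 in dCas9 cells (SE 0.109, adjusted p = 0.837 by edgeR) and -0.14 in TALE cells (SE 0.109, adjusted p = 0.813).

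SLC16A1 (MCT1), which carries lactate across the plasma membrane, did not pass the threshold. It read 142, 129 and 132 CPM in untreated cells, 174, 176 and 145 CPM in TALE cells and 154, 138 and 144 CPM in dCas9 cells. TALE and untreated libraries did not overlap, whereas dCas9 and untreated ones did. For SLC16A1 the log2 fold change was 0.30 in TALE cells (SE 0.116, adjusted p = 0.607 by edgeR) and 0.11 in dCas9 cells (SE 0.116, adjusted p = 0.974). The fourth carrier, SLC16A3 (MCT4), the exporter of highly glycolytic cells, was near its counting limit, with group means of 1.57, 0.933 and 1.59 CPM in untreated, TALE and dCas9 cells.

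In upper glycolysis, PFKM, the muscle form of phosphofructokinase and the committed step of the pathway, had the smallest p of all members in 3 of the 4 contrasts. It had 88, 58 and 62 counts in untreated cells, 124, 159 and 101 in TALE cells and 125, 85 and 120 in dCas9 cells. As CPM these were 7.68, 7.17 and 7.50, then 12.2, 12.3 and 9.35, then 11.6, 8.80 and 11.9. Each of the 6 silenced libraries exceeded each untreated one. PFKM had a log2 fold change of 0.59 (SE 0.181) in TALE cells, 0.53 (SE 0.182) in dCas9 cells and 0.56 (SE 0.161) in silenced cells, with adjusted p of 0.538, 0.595 and 0.377 by edgeR. PFKP, which supplies most phosphofructokinase transcript here, had means of 123, 119 and 123 CPM, and PFKL had means of 43.5, 43.2 and 42.7 CPM in untreated, TALE and dCas9 cells. The per-kilobase ratio of PFKP to PFKM was therefore 19.4 ± 0.540 in untreated, 12.6 ± 2.01 in TALE and 13.8 ± 3.19 in dCas9 cells (SD, n = 3). PFKM lies at chr12:48498922-48540187 (GRCh37, plus strand), and exons of SENP1 overlap it on the other strand. Strand use in counting is not given in the sources used here, so reads of the overlap cannot be assigned to either gene. Such an overlap on the other strand is annotated for 16 of the 36 members, and 9 share exonic bases with a gene on their own strand.

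GPI, the isomerase that turns glucose-6-phosphate into fructose-6-phosphate, did not pass the threshold either. Its levels were 392, 421 and 430 CPM in untreated cells, 305, 385 and 343 in TALE cells and 368, 329 and 396 in dCas9 cells. TALE libraries all lay below the untreated ones, while dCas9 replicate 3 lay among them. In silenced cells GPI had a log2 fold change of -0.23 (SE 0.111, adjusted p = 0.799 by edgeR). HK1 was the highest member of upper glycolysis per kilobase, with 435, 422 and 388 CPM in untreated cells, 580, 523 and 399 in TALE cells and 444, 503 and 446 in dCas9 cells. dCas9 libraries lay above the untreated ones and TALE libraries overlapped them. HK2, a HIF target in many cells, had means of 60.2, 59.4 and 58.0 CPM and differed by less than the spread between replicates.

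In lower glycolysis, group means lay close together and TALE replicate 1 stood apart for several genes. GAPDH read 3128, 2974 and 3109 CPM in untreated cells, 2457, 3175 and 3311 in TALE cells and 3328, 2445 and 2513 in dCas9 cells. Its TALE and dCas9 values each spanned a wider range than the untreated ones, and all 3 groups overlapped. ALDOA read 2279, 2385 and 2479 CPM in untreated cells, 1585, 2346 and 2521 in TALE cells and 2587, 2208 and 2666 in dCas9 cells. ALDOC, the aldolase of brain that is also a HIF target, read 94.8, 91.0 and 97.8 CPM in untreated cells and 41.4, 92.3 and 109 in TALE cells, with 114, 76.4 and 85.4 in dCas9 cells. In both aldolases TALE replicate 1 was the lowest library, and the other 2 TALE libraries lay at or near untreated levels. PGK1, which makes the first ATP of the pathway, followed the same order, at 599, 554 and 555 CPM in untreated, 356, 536 and 653 in TALE and 634, 531 and 505 in dCas9 cells.

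ENO2 was among the members with the smallest p in TALE against dCas9 cells. It read 10.6, 12.2 and 10.4 CPM in untreated, 7.15, 10.2 and 11.2 in TALE and 13.1, 10.9 and 14.3 in dCas9 cells, so that TALE replicate 3 exceeded dCas9 replicate 2. The log2 fold change of TALE against dCas9 cells was -0.42 (SE 0.181, adjusted p = 0.747 by edgeR), and -0.25 without TALE replicate 1. TPI1, PGAM1, ENO1 and PKM, the remaining enzymes of this stretch, had log2 fold changes between -0.08 and 0.15 against untreated cells in the TALE and dCas9 comparisons. Without TALE replicate 1 their values in TALE cells ran from 0.017 for PGAM1 to 0.21 for TPI1. PKM in dCas9 cells, at 0.15, was the 1 case of these in which the groups did not overlap. Entries named as TPI1 pseudogenes held 27.9% of the counts of TPI1 and those entries together, so its level is uncertain. The same share was 9.97% for BNIP3, 5.83% for HK2, 4.13% for GAPDH, over 58 pseudogene entries, and 1.80% for LDHA.

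LDHA, which regenerates NAD+ by turning pyruvate into lactate, read 2155, 2067 and 2089 CPM in untreated cells, 1335, 1961 and 2380 in TALE cells and 2353, 2059 and 2026 in dCas9 cells. TALE replicate 1 was again the lowest library and TALE replicate 3 the highest. LDHB read 661, 588 and 554 CPM in untreated, 635, 605 and 716 in TALE and 704, 627 and 457 in dCas9 cells, and its lowest library was dCas9 replicate 3. The per-kilobase ratio of LDHA to LDHB ran from 1.22 in TALE replicate 1 to 2.58 in dCas9 replicate 3, around the untreated mean of 2.04. Log2 fold changes were between -0.15 and 0.12 for both genes in TALE and dCas9 cells, and that of LDHA in TALE cells was 0.046 without TALE replicate 1.

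The regulators include PDK1, a mitochondrial kinase that inhibits pyruvate dehydrogenase and so limits the conversion of pyruvate to acetyl-CoA, and a classical HIF target. It read 105, 105 and 103 CPM in untreated cells, 46.3, 86.9 and 98.0 in TALE cells and 111, 96.1 and 84.3 in dCas9 cells. All TALE libraries lay below all untreated ones, replicate 1 by far the most. The log2 fold change in TALE cells was -0.44 (SE 0.190, adjusted p = 0.658 by edgeR), and -0.17 without TALE replicate 1. PFKFB4, which sets the level of the phosphofructokinase activator fructose-2,6-bisphosphate, read 31.9, 29.9 and 40.7 CPM in untreated, 15.4, 28.3 and 30.1 in TALE and 33.5, 28.1 and 29.3 in dCas9 cells. Its log2 fold change in TALE cells was -0.47 (SE 0.192, adjusted p = 0.649), and -0.22 without that library. PFKFB3, its paralog with the stronger kinase activity, had group means of 17.1, 19.2 and 16.2 CPM and overlapped between all groups.

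HIF1A, the oxygen-regulated subunit of HIF-1, read 101, 89.6 and 90.5 CPM in untreated cells, 100, 94.2 and 96.4 in TALE cells and 92.0, 105 and 91.7 in dCas9 cells, with all groups overlapping. Its log2 fold changes were 0.05 and 0.04 (SE 0.110 each, adjusted p = 0.956 and 0.996 by edgeR), with 95% intervals of -0.18 to 0.28 and -0.19 to 0.27. ARNT, its constitutive partner, had means of 86.0, 90.4 and 88.8 CPM. EGLN1, the main oxygen-sensing hydroxylase, had means of 37.1, 33.5 and 33.5 CPM, and its dCas9 libraries lay below the untreated ones. EGLN3, a hydroxylase that HIF itself induces, read 23.9, 25.5 and 23.0 CPM in untreated cells, 13.8, 19.6 and 23.0 in TALE cells and 25.1, 25.0 and 23.3 in dCas9 cells. It was the member with the smallest p in TALE against dCas9 cells, where its groups did not overlap (log2 fold change -0.38, SE 0.156, adjusted p = 0.745 by edgeR). Without TALE replicate 1 this value was -0.20.

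Of the further hypoxia targets, the mitophagy receptor BNIP3 read 141, 130 and 138 CPM in untreated cells, 68.2, 116 and 131 in TALE cells and 137, 141 and 107 in dCas9 cells. Its relative BNIP3L, which also clears mitochondria from maturing red cells, read 262, 237 and 257 CPM in untreated, 138, 212 and 262 in TALE and 267, 247 and 246 in dCas9 cells. VEGFA, the growth factor of blood vessels, read 162, 195 and 189 CPM in untreated, 115, 154 and 163 in TALE and 163, 176 and 173 in dCas9 cells. In all 3 genes TALE replicate 1 was the lowest of the 9 libraries, and TALE and untreated values overlapped. The log2 fold changes in TALE cells were -0.37 for BNIP3 (SE 0.178), -0.31 for BNIP3L (SE 0.169) and -0.33 for VEGFA (SE 0.134), with edgeR adjusted p of 0.701, 0.748 and 0.624. Against dCas9 cells they were -0.31 for BNIP3L and -0.24 for VEGFA. Without TALE replicate 1 the values against untreated cells were -0.14 for BNIP3, -0.088 for BNIP3L and -0.20 for VEGFA, and those against dCas9 cells -0.094 for BNIP3L and -0.10 for VEGFA. Without TALE replicate 3 they moved the other way for BNIP3, to -0.56, and for BNIP3L, to -0.52 against untreated and -0.53 against dCas9 cells.

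ANKRD37, a small HIF target of little known function, read 6.55, 7.41 and 9.56 CPM in untreated cells, 2.55, 5.70 and 8.34 in TALE cells and 6.95, 5.07 and 5.25 in dCas9 cells. The groups overlapped, and the log2 fold changes were -0.49 in TALE cells (SE 0.298) and -0.43 in dCas9 cells (SE 0.300), with adjusted p of 0.770 and 0.946 by edgeR. The TALE value for ANKRD37 was -0.16 without TALE replicate 1, -0.88 without TALE replicate 3 and -0.32 without untreated replicate 3, and the dCas9 value was -0.27 without untreated replicate 3. KDM3A, a histone H3K9 demethylase induced by HIF, had means of 68.4, 58.5 and 64.7 CPM, with TALE libraries all below untreated ones, and a log2 fold change in TALE cells of -0.22 that became -0.085 without TALE replicate 1. NDRG1 had means of 1.75, 1.78 and 2.51 CPM. ADM and CA9 were not tested.

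**Figure D3:**
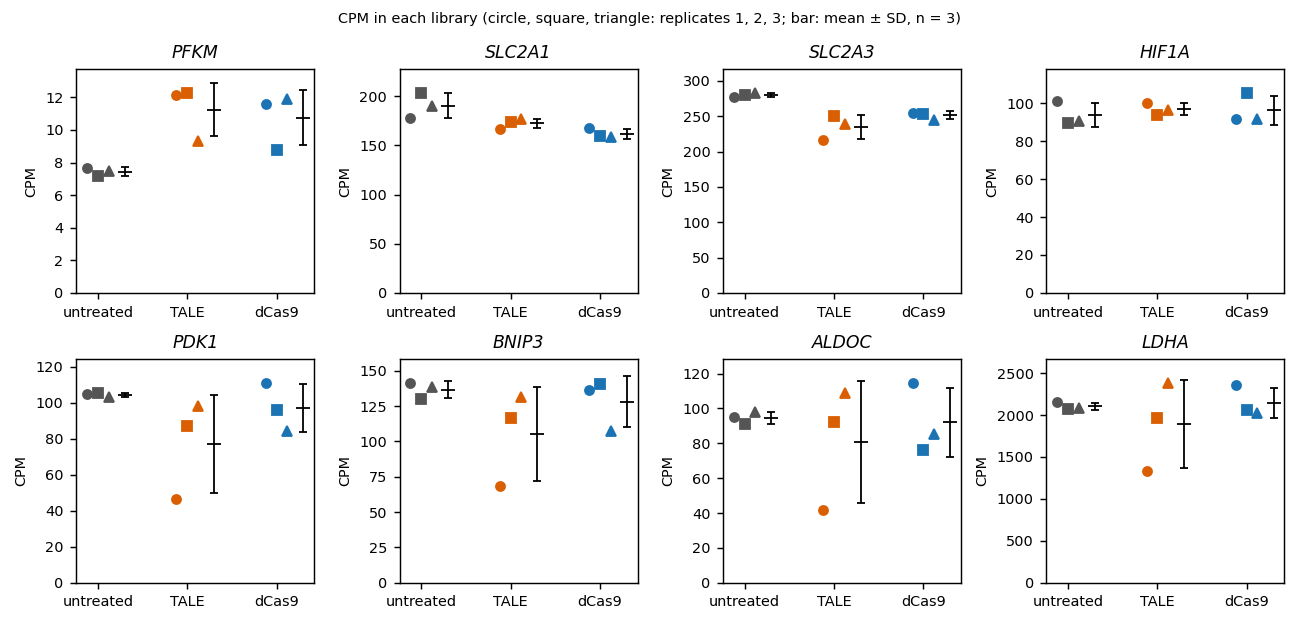
CPM (y axis, from 0) in each of the 9 libraries for 8 of the genes, with the group mean and SD beside the points (n = 3). PFKM is higher in all 6 silenced libraries than in untreated ones, SLC2A1 and SLC2A3 are lower, HIF1A overlaps, and PDK1, BNIP3, ALDOC and LDHA are lowest in TALE replicate 1.

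Counts of members whose groups did not overlap in CPM were read against the same share of all genes. In TALE against untreated cells 8 of 34 members (23.5%) did not overlap, 2 higher and 6 lower, beside 12.5% of all genes tested. The 2 higher were PFKM and SLC16A1, and the 6 lower were SLC2A1, SLC2A3, GPI, PDK1, EGLN3 and KDM3A. In dCas9 against untreated cells there were 6 (17.6%), 3 in each direction, beside 11.6%: PFKM, HK1 and PKM were higher, and SLC2A1, SLC2A3 and EGLN1 lower. In TALE against dCas9 cells only EGLN3 did not overlap (2.94% of members), beside 9.38% of all genes. With the 6 silenced libraries together, PFKM, SLC2A1 and SLC2A3 lay apart from the untreated ones (8.82%), beside 3.54%. With 3 libraries against 3, an exact permutation test cannot give a p below 0.1. With 6 against 3 its limit is 0.0119. PFKM, SLC2A1 and SLC2A3 stood at that limit, unadjusted, as groups that do not overlap must.

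Many members deviated together within the TALE group, in replicate 1. That library had the lowest CPM of the 9 for 19 of 34 members (55.9%), beside 15.1% of all 13786 genes tested. It lay more than 0.5 log2 units below the 9-library mean for 13 members (38.2%), beside 5.64% of all genes. By role, it was the lowest library for 5 of the 6 tested hypoxia targets, 6 of 9 genes of lower glycolysis, 2 of 3 regulators, 2 of 4 oxygen sensing genes, 2 of 6 genes of upper glycolysis, 1 of 2 lactate dehydrogenases and 1 of 4 carriers. This pattern, and the genes named for it, were noticed in the data, so the shares are given without a test.

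As a share of the median of the other 8 libraries, ANKRD37 stood at 37.8% in TALE replicate 1, ALDOC at 44.3%, PDK1 at 46.1%, BNIP3 at 50.9%, PFKFB4 at 51.3%, BNIP3L at 54.6% and EGLN3 at 58.5%. PGK1, LDHA, ENO2 and ALDOA followed at 64.2% to 65.2%, VEGFA at 68.4%, KDM3A at 70.5% and PKM at 72.8%. Not all members took part. HIF1A stood at 108%, ARNT at 99.5%, HK2 at 101%, SLC2A1 at 95.3% and LDHB at 103%, while SLC16A1, PFKFB3, HK1 and PFKM were above the median, at 122%, 127%, 132% and 134%. HIF1A was thus near the median in the library in which many known HIF targets were lowest.

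**Figure D4:**
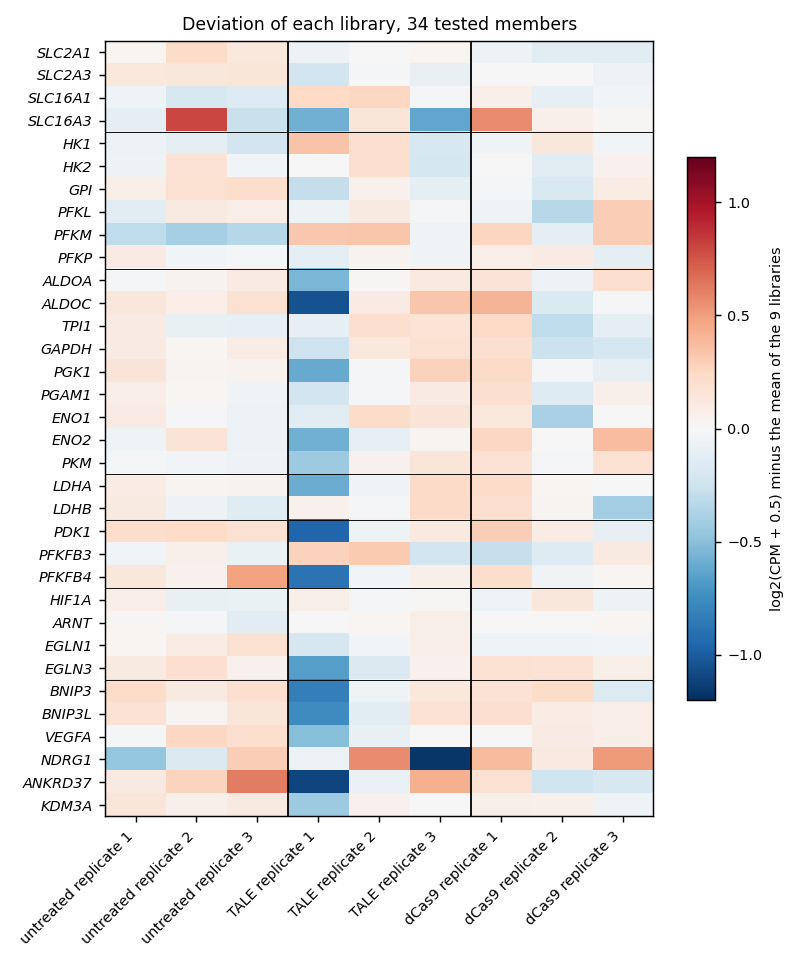
Difference of log2(CPM + 0.5) from the mean of the 9 libraries (colour, blue lower and red higher) for the 34 tested genes, by library along the x axis and by role along the y axis. The column of TALE replicate 1 is blue for most genes of lower glycolysis, the regulators and the hypoxia targets, and HIF1A and ARNT are pale in every column.

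Genes outside the members were read through 3 lists, which like the members were chosen with earlier results of these data known. Of 21 other tested HIF targets, 13 (61.9%) were lowest in TALE replicate 1. They included P4HA1, a collagen prolyl hydroxylase, at 57.7% of the median of the other libraries, the mTOR inhibitor DDIT4 at 50.2%, the repressor BHLHE40 at 55.6% and MIR210HG, the host transcript of the hypoxia microRNA miR-210, at 15.6%. Of 28 other genes of glycolysis and glucose use, 6 (21.4%) were lowest there, and of 14 other genes of the HIF machinery 1 (7.14%) was, beside 15.1% of all genes. No gene of these 3 lists passed the adjusted threshold in any contrast by edgeR or DESeq2 after the filter on low counts, and with no filter edgeR called 1, MIR210HG. At an unadjusted edgeR p under 0.05, the other HIF targets had 0 higher and 3 lower of 21 in TALE against untreated cells, beside 7.15% of all genes, and 0 and 4 in TALE against dCas9, beside 6.38%. They had 0 and 2 in silenced cells, beside 6.35%, and 0 of either in dCas9 cells, beside 5.93%. The median log2 fold change of these 21 genes was -0.17 in TALE against untreated cells and -0.15 in TALE against dCas9, and without TALE replicate 1 it was -0.023 and -0.0042. The other glycolysis list had 1 higher and 0 lower in TALE, dCas9 and silenced cells and 0 of either in TALE against dCas9, and the machinery list had 0 in each.

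MIR210HG had the smallest p of these lists. It had 34, 29 and 40 counts in untreated libraries, 6, 18 and 25 in TALE libraries and 44, 41 and 40 in dCas9 libraries. All TALE libraries lay below all others. The log2 fold change in TALE cells was -1.38 (SE 0.360, adjusted p = 0.362 by edgeR) and -1.03 without TALE replicate 1, and against dCas9 cells -1.50 (SE 0.353, adjusted p = 0.511). With no filter on low counts, MIR210HG passed the threshold in both, at -1.34 (adjusted p = 0.0170 by edgeR) and -1.48 (adjusted p = 0.00128). That setting also called more genes over the whole table in both contrasts, with the counts given in the last section. KDM4B, another HIF-induced demethylase, stood at -0.39 in TALE cells (SE 0.113, adjusted p = 0.483). Other smallest values were 1.32 for the kinase PDK2 in dCas9 cells (SE 0.527, adjusted p = 0.739) and -0.44 for BHLHE40 in TALE against dCas9 cells (SE 0.15, adjusted p = 0.687), the latter -0.25 without TALE replicate 1.

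**Figure D5:**
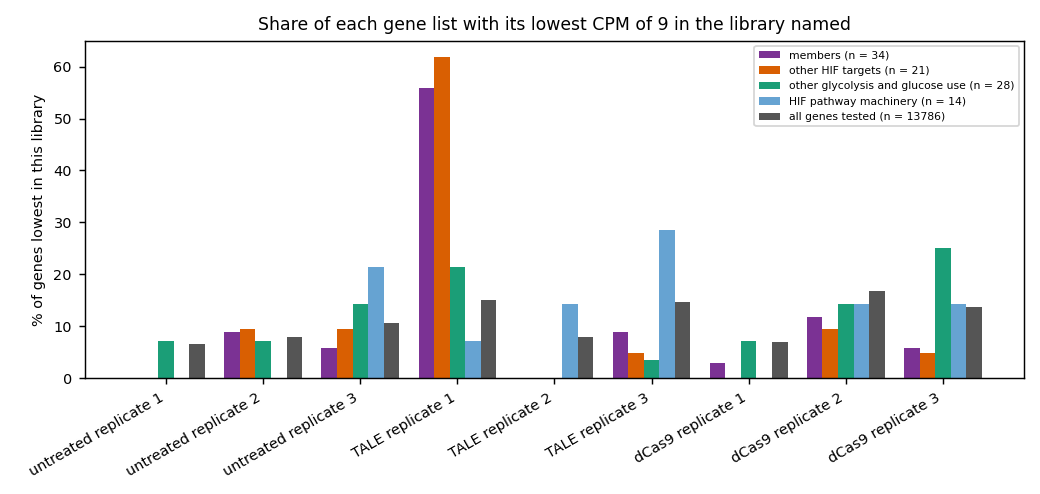
Percent of the genes of each list (y axis, from 0) whose lowest CPM of 9 fell in the library named on the x axis. TALE replicate 1 holds 55.9% of the members and 61.9% of the other HIF targets, beside 15.1% of all genes tested. The lists were chosen with earlier results of these data known.

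In depth and mitochondrial share TALE replicate 1 was within the range of the other libraries, but in other features it stood at the edge. It had 9635381 counts, and 6.00% of them came from the mitochondrial genome. Its K562 marker sum, 7055 CPM, was the lowest, next to 7092 CPM in dCas9 replicate 3. That sum rested mostly on globin genes, with HBG2 at 2644 CPM and HBE1 at 1467 CPM. By marker, 3 of the 12 were lowest in TALE replicate 1 and 1 was highest. Their median deviation from the 9-library mean was -0.016 log2 units there, beside -0.20 in dCas9 replicate 3. The T cell marker sum of TALE replicate 1, 16.9 CPM, was the lowest too, next to 19.7 CPM in TALE replicate 2. Of the 16.9 CPM, CD3D made up 14.8 CPM. Of all 13786 genes tested, 5.64% lay more than 0.5 log2 units below the 9-library mean in this library. Another 17.8% of all genes had their highest CPM of the 9 in it. Both shares were the largest of any library. The part of these features in the result was not tested. Without this library, the median log2 fold change of the 34 members in TALE against untreated cells was 0.021 in place of -0.14, and 1 member in place of 7 had an unadjusted p under 0.05. The remaining one was PFKM, at 0.54 (SE 0.202, adjusted p = 0.796 by edgeR). ALDOC, PGK1, LDHA and GAPDH, below 0 with all libraries at -0.22, -0.14, -0.15 and -0.04, stood at 0.089, 0.065, 0.046 and 0.080 without it. ALDOA, PKM, PGAM1 and PFKL also turned, from -0.15, -0.022, -0.069 and -0.0047 to 0.033, 0.14, 0.017 and 0.031.

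The promoters of 7 members that were lowest in that library are shown with that of PFKM, which was not, all chosen with these values known. HIF-1 binds DNA at a short core, searched here as ACGTG or GCGTG on both strands. On the strand shown a match on the other strand reads CACGT or CACGC, and the palindrome CACGTG counts once on each strand. Capitals mark these matches. Each stretch is the 250 bases before the start of the MANE Select transcript, 5′ to 3′ on the gene's strand, from the GRCh37 genome: PDK1 at chr2:173420568-173420817 (plus), ANKRD37 at chr4:186317745-186317994 (plus), ALDOC at chr17:26903914-26904163 (minus), LDHA at chr11:18415860-18416109 (plus), PGK1 at chrX:77359495-77359744 (plus), BNIP3 at chr10:133795428-133795677 (minus), EGLN3 at chr14:34420281-34420530 (minus) and PFKM at chr12:48512897-48513146 (plus).
PDK1: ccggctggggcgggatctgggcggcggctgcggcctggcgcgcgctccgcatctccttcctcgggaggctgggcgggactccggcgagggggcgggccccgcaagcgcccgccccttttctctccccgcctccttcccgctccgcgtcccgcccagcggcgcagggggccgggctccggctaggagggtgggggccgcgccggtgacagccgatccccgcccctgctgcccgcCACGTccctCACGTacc
ANKRD37: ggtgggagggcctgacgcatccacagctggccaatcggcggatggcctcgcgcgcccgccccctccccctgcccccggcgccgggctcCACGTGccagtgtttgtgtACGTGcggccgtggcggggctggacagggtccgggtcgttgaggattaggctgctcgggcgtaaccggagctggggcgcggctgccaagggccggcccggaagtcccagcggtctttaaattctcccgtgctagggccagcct
ALDOC: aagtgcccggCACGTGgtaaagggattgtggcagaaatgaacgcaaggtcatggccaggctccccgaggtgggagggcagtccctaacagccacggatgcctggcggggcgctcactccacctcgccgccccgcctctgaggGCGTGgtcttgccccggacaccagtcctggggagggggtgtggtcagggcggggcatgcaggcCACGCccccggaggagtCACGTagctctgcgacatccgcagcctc
LDHA: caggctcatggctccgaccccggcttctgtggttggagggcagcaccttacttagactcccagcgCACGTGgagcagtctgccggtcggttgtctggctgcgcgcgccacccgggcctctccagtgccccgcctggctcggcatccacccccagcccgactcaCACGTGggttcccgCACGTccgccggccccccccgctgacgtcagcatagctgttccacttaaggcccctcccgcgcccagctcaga
PGK1: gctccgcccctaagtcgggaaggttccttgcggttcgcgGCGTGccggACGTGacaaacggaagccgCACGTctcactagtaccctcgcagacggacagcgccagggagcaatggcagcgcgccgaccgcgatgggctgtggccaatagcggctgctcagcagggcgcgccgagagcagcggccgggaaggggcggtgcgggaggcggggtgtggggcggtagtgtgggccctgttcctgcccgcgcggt
BNIP3: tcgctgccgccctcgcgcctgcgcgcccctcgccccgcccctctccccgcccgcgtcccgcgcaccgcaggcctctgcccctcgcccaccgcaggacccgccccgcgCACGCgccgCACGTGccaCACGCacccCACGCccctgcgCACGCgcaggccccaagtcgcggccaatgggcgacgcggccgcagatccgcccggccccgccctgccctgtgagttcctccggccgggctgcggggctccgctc
EGLN3: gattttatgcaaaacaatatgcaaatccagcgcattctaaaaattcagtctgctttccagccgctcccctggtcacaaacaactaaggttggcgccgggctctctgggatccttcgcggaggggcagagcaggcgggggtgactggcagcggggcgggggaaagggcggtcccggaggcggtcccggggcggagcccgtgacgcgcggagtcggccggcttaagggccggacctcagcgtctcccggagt
PFKM: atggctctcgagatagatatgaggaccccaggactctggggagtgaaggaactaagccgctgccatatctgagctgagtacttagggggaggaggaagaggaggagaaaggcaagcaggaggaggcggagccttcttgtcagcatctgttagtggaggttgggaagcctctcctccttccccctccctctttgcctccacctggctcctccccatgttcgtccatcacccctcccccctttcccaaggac

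In these stretches PDK1 had 2 matches, beginning at positions -17 and -8 from the start, ANKRD37 had 3, PGK1 had 3, ALDOC and LDHA had 5 each and BNIP3 had 6. EGLN3, also low in TALE replicate 1, had none, and neither had PFKM. The number of matches overlapped between members lowest in that library and the other tested members. Windows of 300 bases were also read, from 250 before to 50 after the start. SLC16A1 held 5, HK2 and GAPDH 3 each and PFKFB3 2, none of them lowest in TALE replicate 1. GAPDH stood at 78.8% of the median of the other libraries there, and PFKFB4, at 51.3%, held 1. In these windows 32 of 36 members (88.9%) held a match, beside 63.8% of 11366 tested genes with a window. The ACGTG form was in 19 of 36 members (52.8%), beside 26.5% of those genes. Of the 19 members lowest in TALE replicate 1, 18 (94.7%) held a match of either form, and of the other 15 tested members 12 (80%) did. For ACGTG alone the counts were 13 (68.4%) and 5 (33.3%). The mean number of matches of either form was 2.21 and 1.53, in the same order, beside 1.27 over all these genes. The windows of the members had a GC content of 70.6%, and those of all these genes 64.3%. A match is a run of letters and not a measured site, and its share was not tested. The members were listed as glycolysis and hypoxia genes, many of them known HIF targets. They were split by a value noticed in these same data. These shares may follow from that choice, and the cause of the low values was not tested.

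MeDIP counts near the members' starts were not detectably different between groups. No MeDIP region of the deposited table covered the start of any of the 36 members, where 163 of 11366 tested genes (1.43%) had one, and no sample had a called peak over a member's start. Within 2 kb of the start, 18 members (50%) had a region, beside 53.7% of all these genes. The nearest edges were 353 bases from the start of NDRG1 and 509 bases from that of LDHB. Of the 18 regions, 10 had enough counts to be tested. edgeR called 0 of them in every contrast, and DESeq2 called 0 too. All regions gave 0% in TALE against untreated cells, 0.000947% in dCas9 against untreated cells, 0.000947% in TALE against dCas9 and 0% in silenced cells. At an unadjusted edgeR p under 0.05 there were 0 of 10 in each contrast, beside 4.47% to 4.88% of all 105652 regions tested.

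The region upstream of LDHA, at chr11:18415022-18415270 (hg19, the build of the deposited table), ran from position -1088 to -840 relative to its start. It held 17, 16 and 11 reads in untreated samples, 9, 13 and 20 in TALE samples and 13, 15 and 15 in dCas9 samples. The region of ANKRD37, at chr4:186319124-186319422, ran from position 1129 to 1427 and held 39, 20 and 29, then 25, 36 and 38, then 29, 55 and 26 reads. Their groups overlapped. Log2 fold changes of the 10 regions ran from -0.39 to 0.81 in TALE and from -0.71 to 0.33 in dCas9 against untreated samples, with medians of 0.00 in each. The 10 regions held 3 to 114 reads per sample, and at that depth only large differences could be detected.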

How the data were processed

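RNA was analysed from the deposited table of raw counts per gene symbol. Per the submitters' processing notes, reads were aligned to hg19 with STAR 2.3.0, and the counting tool, annotation and strand setting are not given in the sources used here. RNA libraries were made from total RNA with an amplification kit meant for degraded RNA, per the labels' protocols. MeDIP-seq counts per region came from the authors' deposited table, and peak positions from their deposited lists. The score, fold (ratio) and −log10 p columns of those deposited lists were not used. The notes name BWA 0.7.5, Picard, MACS2 and bedtools.

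Counts were tested with edgeR 4.0.16 (R 4.3.3) in 1 quasi-likelihood model of the 3 group means over the 9 libraries, after filterByExpr with a minimum count of 10 and trimmed-mean scaling, with Benjamini-Hochberg adjustment over all features and a threshold of 0.05. DESeq2 1.42.0 was an alternative. Deviations of single libraries used log2(CPM + 0.5). Simulated data were used to test the scripts. Levels per kb used the MANE Select transcript of GENCODE lifted to GRCh37, which matched 36 of 36 members. The members and lists were chosen with earlier results of these data known. Values in every library are given for members with the 4 smallest p in a contrast and the highest per length in each role. ALDOA, ALDOC, PGK1, LDHB, PDK1 and the genes outside the members other than those with the smallest p were added after their values were seen.

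Groups and replicates came from sample titles. Alternatives were no filter, DESeq2, a replicate block, other scaling and each library left out.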

Additional observations from a re-analysis of the deposited data

Results flagged for a closer look

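Among the 6 silenced libraries, 11 of 34 members had 1 library farther from the rest than Dixon's 95% limit allows, when the gap to the nearest library is divided by the whole range on the log2(CPM + 0.5) scale. Chance alone passes this limit in about 1 in 20 groups. Of all 13786 genes tested, 693 (5.03%) passed it. The share among members was 32.4%. Members were read in the same 6 libraries and can shift together, so the 11 are not independent cases.

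TALE replicate 1 was the library set apart in 9 of the 11 cases, and in 169 of the 693 genes that passed the limit. In the 9 member cases it was the low library. In glycolysis the ratio was 0.638 for ALDOA, 0.689 for PKM and 0.664 for LDHA. For the regulators it was 0.685 for PDK1 and 0.769 for PFKFB4. For hypoxia targets it was 0.628 for BNIP3, 0.653 for BNIP3L, 0.691 for VEGFA and 0.748 for KDM3A. TALE replicate 3 stood apart for ARNT, at 0.658, where it was the highest library, and for NDRG1, at 0.636, where it was the lowest with 6 counts.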

How the results depend on the processing

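The count of members called was 0 in all 4 contrasts under every alternative run, and MeDIP regions called near members were 0 as well. Of 472 recomputed values of the 28 fold changes followed here, 468 kept their direction and side of the threshold, and the lowest adjusted p was 0.110 by edgeR or DESeq2. The other 4 turned in direction without TALE replicate 1: leave-one-out values in TALE against untreated cells ran from -0.49 to 0.089 for ALDOC, -0.35 to 0.065 for PGK1, -0.35 to 0.046 for LDHA and -0.12 to 0.080 for GAPDH. In that contrast ALDOA, PKM, PGAM1 and PFKL, which were not among the 28, turned as well without TALE replicate 1. The median of the members in TALE against untreated cells ran from -0.19 without TALE replicate 3 to 0.021 without TALE replicate 1, and the cause was not tested. With no filter on low counts, 1 gene of the other lists was called in TALE against untreated cells and 1 in TALE against dCas9. Both were MIR210HG, at -1.34 (SE 0.315, adjusted p = 0.0170 by edgeR) and -1.48 (SE 0.308, adjusted p = 0.00128). Over all genes, the counts called of 3, 4, 0 and 5 (TALE, dCas9, TALE against dCas9, silenced) became 74, 89, 77 and 79 with no filter, 9, 27, 0 and 36 with DESeq2, and 1, 2, 0 and 3 with at least 10 counts in every library. With only the groups compared, dCas9 had 8. Leaving out 1 library gave 2 to 16, 2 to 10, 0 to 21 and 2 to 33.

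Replicate numbers were not used as pairs in the main model. Deviations of same-numbered RNA libraries correlated over genes between -0.28 and 0.10, and differently numbered ones were not compared. With a replicate block, 0 members were called in each contrast, the TALE median was -0.15, and 3, 2, 0 and 4 of all genes were called. Depth limits ADM, CA9, SLC16A3 and NDRG1, whose intervals are wide or could not be had.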
